A study of Mus musculus with 6 samples.

Results

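The genes described here are 7 of the 55809 genes in the deposited counts of HC11 cells grown with or without BMP7. The dual oxidase gene Duox2, the serine protease gene Tmprss4, the axonemal gene Drc1 and the chemokine receptor-like gene Ccrl2 were chosen by their fall: they are 4 of the 5 genes with the most negative fold change between BMP7 and Ctrl among the 14101 genes whose mean was at least 1 CPM, a count scaled to library size after TMM normalisation. The other 3, Duox1, Duoxa1 and Duoxa2, were added as the paralog of Duox2 and as the maturation factors of the dual oxidases. Values of the first 4 in this contrast are therefore given as a description, with no test, and Duox1 and Duoxa1 were tested.

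HC11 is an established mouse mammary epithelial cell line, used in the study as a luminal line, and BMP7 is a secreted ligand of BMP receptors. The 3 libraries of the Ctrl group came from HC11 cells in medium without BMP7, and the 3 libraries of the BMP7 group from HC11 cells in medium with BMP7. Neither group carried any other allele or agent in the labels. The labels do not say whether the libraries came from separate cultures, so p-values measure the spread between these samples, which may be technical. The question the comparison addresses in the study is which transcripts of luminal cells respond to BMP7.

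Dual oxidases are membrane enzymes that pass electrons from NADPH to oxygen outside the cell and release hydrogen peroxide. They leave the endoplasmic reticulum only with a maturation factor, Duoxa1 or Duoxa2, and they supply hydrogen peroxide for hormone synthesis in the thyroid and for defence at mucosal surfaces. Tmprss4 is a protease anchored in the plasma membrane of epithelial cells, Drc1 is a scaffold of the nexin-dynein regulatory complex that ties microtubule doublets together in motile cilia, and Ccrl2 is an atypical receptor that binds chemerin without the usual signalling and is best known from activated myeloid cells.

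Promoter sequences are shown for the genes that had the largest falls and for Duoxa2, whose start faces that of Duox2. They are RefSeq windows of GRCm38.p6 from 250 bases before to 50 bases after the annotated start, 300 bases each, read 5′ to 3′ on the strand of the gene. RefSeq held windows for 6 of the 7 genes, and none for Tmprss4. Ccrl2 has 3 overlapping windows, of which the one with the most upstream start is shown. Capitals mark matches, on either strand, to any of 9 motifs, which were chosen with the sequences and earlier results known.
Duox2, chr2:122298178-122298477, minus strand: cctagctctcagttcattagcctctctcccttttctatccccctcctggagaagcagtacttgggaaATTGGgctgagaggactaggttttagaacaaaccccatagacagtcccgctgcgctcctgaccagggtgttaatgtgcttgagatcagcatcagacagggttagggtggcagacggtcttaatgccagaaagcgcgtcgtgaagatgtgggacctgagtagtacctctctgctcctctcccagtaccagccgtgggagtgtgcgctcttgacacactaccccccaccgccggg
Duoxa2, chr2:122298650-122298949, plus strand: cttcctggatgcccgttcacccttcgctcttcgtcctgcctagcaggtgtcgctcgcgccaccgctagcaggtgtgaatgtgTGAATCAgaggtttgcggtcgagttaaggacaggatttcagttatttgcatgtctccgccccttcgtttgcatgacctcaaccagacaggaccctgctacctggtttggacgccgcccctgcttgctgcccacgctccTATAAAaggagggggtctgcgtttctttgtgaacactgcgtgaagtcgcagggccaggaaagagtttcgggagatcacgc
Drc1, chr5:30281143-30281442, plus strand: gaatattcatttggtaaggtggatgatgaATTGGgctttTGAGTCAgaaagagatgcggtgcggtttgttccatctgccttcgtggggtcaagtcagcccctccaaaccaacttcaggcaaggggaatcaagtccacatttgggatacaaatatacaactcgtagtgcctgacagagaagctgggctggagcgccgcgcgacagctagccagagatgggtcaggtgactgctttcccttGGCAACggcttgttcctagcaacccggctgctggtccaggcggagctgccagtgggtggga
Ccrl2, chr9:111057469-111057768, minus strand: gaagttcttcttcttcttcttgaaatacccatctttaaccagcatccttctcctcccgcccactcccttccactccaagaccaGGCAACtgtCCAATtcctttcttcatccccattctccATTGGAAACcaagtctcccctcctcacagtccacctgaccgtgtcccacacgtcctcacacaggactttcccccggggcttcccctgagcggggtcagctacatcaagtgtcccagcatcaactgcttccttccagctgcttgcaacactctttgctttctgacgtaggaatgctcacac

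The Duox2 window held 1 match, to CCAAT, from base -183 to base -179 relative to the start. The Duoxa2 window held TGANTCA, a loose pattern for AP-1 that allows any central base, as TGAATCA from -168 to -162. It also held TATAAA from -30 to -25. In the Drc1 window, CCAAT matched from -221 to -217 and TGANTCA, as TGAGTCA, from -211 to -205. GGNAAC, the core of sites for RFX factors, matched there from -11 to -6. The Ccrl2 window shown held GGNAAC from -167 to -162 and from -127 to -122, and CCAAT from -158 to -154 and from -130 to -126, where matches of the 2 motifs overlap. The other windows of Ccrl2 held GGNAAC from -85 to -80 and from -66 to -61, and from -111 to -106 and from -92 to -87, and no CCAAT. Of all 32851 RefSeq windows of this length, 37.4% held CCAAT, 7.81% TGANTCA, 13.6% TATAAA and 45.3% GGNAAC. The motifs GGCGCC and GTCTAGAC, both known from SMAD-bound elements, the NF-kB and STAT motifs and the ETS core CCGGAAG had no match in these 4 windows. They occurred in 11.9%, 0.213%, 1.63%, 8.3% and 8.86% of all windows, respectively. Over the 13284 windows of genes tested here the shares differed most for GGCGCC (20.5%), CCGGAAG (17.1%) and TATAAA (7.24%). GC content was 55.3% for Duox2, 56.7% for Duoxa2, 54.3% for Drc1 and 53% for Ccrl2, beside a median of 52.7% over all windows. A match is a description of the letters and was not tested as a binding site.

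Total counts ranged from 14607938 to 23748970 per library. The BMP target gene Id1 had 7.61 to 8.21 CPM in Ctrl and 142 to 162 CPM in BMP7, a check of the labels. Epithelial markers summed to 7845 to 8010 CPM in Ctrl and 8134 to 9497 CPM in BMP7, with Krt5 and Krt14 among the most abundant and Krt19 at 0 to 8 counts. Krt14, a large part of this sum, rose from 3489 to 4696 CPM. Of 9 epithelial markers tested, 4 (Epcam, Cdh1, Krt18 and Cldn3) were called lower and 1 (Krt14) higher, at the thresholds given below. BMP7 libraries 3 and 4 stood apart from BMP7 library 1: 12 adipocyte markers summed to 88.9 and 78.7 CPM against 26.3, and 10 neutrophil markers to 7.69 and 8.32 CPM against 32.7. In every Ctrl library the adipocyte sum was under 26.3 CPM. All 7 adipocyte markers tested were called higher, with a median log2 fold change of 1.89. For these 7 the median was 2.27 without BMP7 library 1 and 0.56 with that library alone against Ctrl. Calls numbered 4 to 9 when 1 library was left out. The source of the adipocyte marker transcripts was not tested. Results on Ccrl2 and on leukocyte genes are given with and without BMP7 library 1. The BMP7 libraries are numbered 1, 3 and 4 as in the deposited counts.

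Duox2 was low but measurable in Ctrl and lower in every BMP7 library. Its counts were 128, 173 and 167 in Ctrl replicates 1, 2 and 3, and 26, 54 and 40 in BMP7 replicates 1, 3 and 4. After scaling these were 6.16, 8.50 and 8.17 CPM in Ctrl and 1.81, 2.40 and 2.20 CPM in BMP7. The groups did not overlap, and the highest BMP7 library lay well under the lowest Ctrl library. The mean was 7.61 ± 1.26 CPM (SD, n = 3) in Ctrl and 2.14 ± 0.299 CPM (SD, n = 3) in BMP7, a log2 fold change of -1.81 with a standard error of 0.19. The summed counts gave a 3.48-fold lower level, with a 95% Poisson interval from 2.85 to 4.29 that covers counting error only. This interval and those of Tmprss4, Drc1 and Ccrl2 do not allow for the choice of these genes by their fall, and are no test. With BMP7 replicate 1 alone against Ctrl the log2 fold change was -2.06. In the deposited mm39 coordinates Duox2 lies on chr2:122109728-122128930, minus strand, in 33 exon blocks that share no base with another gene.

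Duox1, the paralog of Duox2, had 70, 38 and 51 counts in Ctrl and 35, 46 and 27 counts in BMP7. This corresponded to 3.37, 1.87 and 2.49 CPM in Ctrl and 2.44, 2.04 and 1.49 CPM in BMP7. The groups overlapped, and Ctrl replicate 2 lay under BMP7 replicates 1 and 3. The mean was 2.58 ± 0.755 CPM (SD, n = 3) in Ctrl and 1.99 ± 0.478 CPM (SD, n = 3) in BMP7. The log2 fold change of -0.38 (standard error 0.28) did not pass edgeR's quasi-likelihood test (Benjamini-Hochberg adjusted p = 0.416), and an exact two-sided permutation test gave p = 0.4, where 0.1 is the smallest that 3 against 3 libraries allow. Over 13 alternative settings its adjusted p in these fits ranged from 0.275 to 0.854. Duox1 lies on chr2:122146153-122178453, plus strand, in 33 exon blocks without shared bases.

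Duoxa1, the maturation factor of Duox1, had the smallest spread within the BMP7 group of the tested genes of the cluster and a slightly higher mean there. It had 121, 96 and 102 counts in Ctrl and 93, 142 and 110 counts in BMP7, or 5.83, 4.72 and 4.99 CPM in Ctrl and 6.48, 6.31 and 6.06 CPM in BMP7. All BMP7 values exceeded all Ctrl values, by a narrow margin. The mean was 5.18 ± 0.578 CPM (SD, n = 3) in Ctrl and 6.28 ± 0.213 CPM (SD, n = 3) in BMP7. The log2 fold change of 0.28 (standard error 0.15) did not pass edgeR's quasi-likelihood test (Benjamini-Hochberg adjusted p = 0.269, and 0.225 to 0.515 over the alternatives), and the exact permutation test gave p = 0.1, the smallest it can give.

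Duoxa2, the maturation factor that pairs with Duox2, was at the limit of detection. It had 4, 0 and 0 counts in Ctrl and 1, 0 and 0 counts in BMP7, too few for the filter by expression, so it was not tested. In the deposited mm39 coordinates Duoxa2 lies on chr2:122129381-122133366, plus strand, and its end overlaps Duoxa1 on chr2:122132672-122144211, minus strand. They share 682 exon bases, which are 42.8% of the exon bases of Duoxa2 and 17.1% of those of Duoxa1. Fragments were counted without strand, and those that fell on more than 1 gene were left out, so fragments on these bases count for neither gene and the level of Duoxa2 rests on the rest of its exons.

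Neither of the 2 tested members that were added by family was called. Across all 15733 genes tested, 5.38% were called lower and 5.99% higher with the thresholds of 0.05 on the adjusted p and 1.2 on the fold change. All BMP7 libraries lay below all Ctrl libraries for 15.1% of genes tested and above them for 14.8%. Duox2, Tmprss4, Drc1 and Ccrl2 are in the first of these shares and Duoxa1 in the second, but for the 4 chosen genes the choice fixes this.

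**Figure D1:**
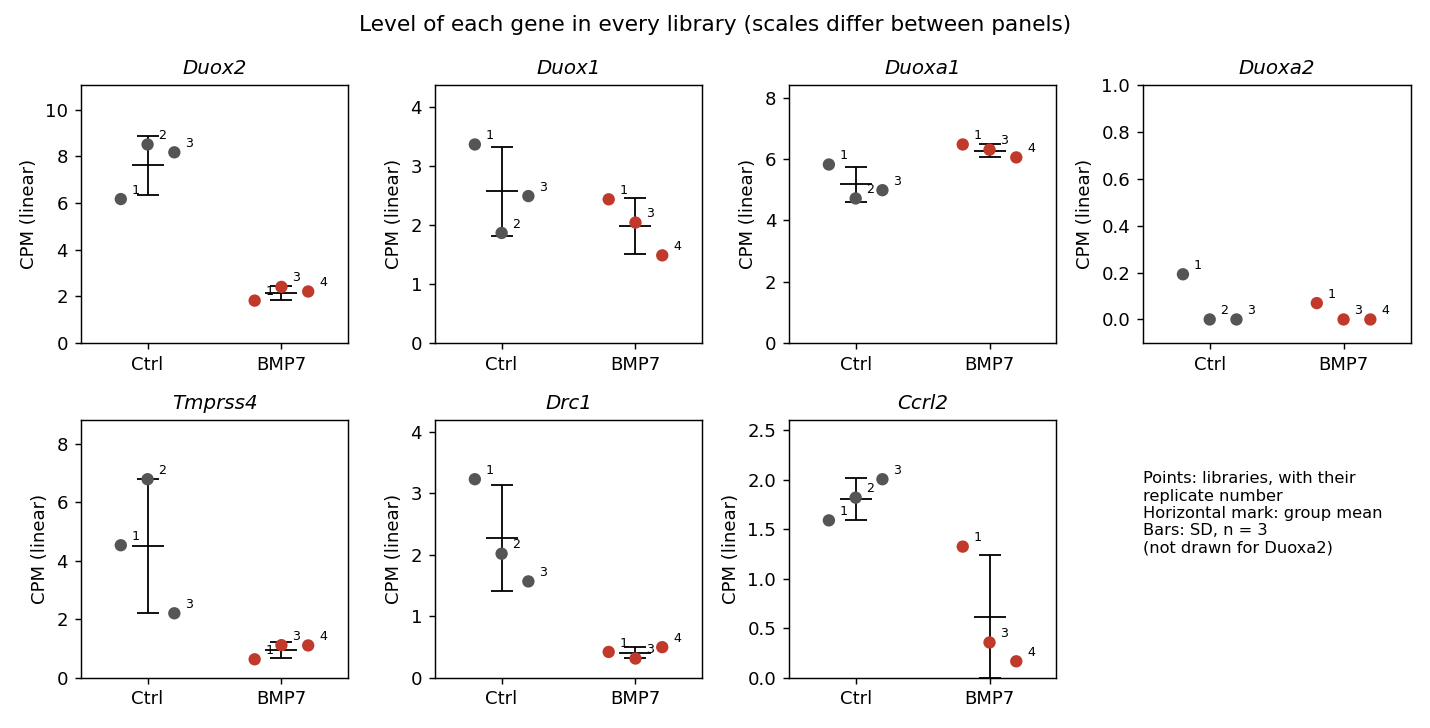
CPM of each of the 7 genes in the 3 Ctrl and 3 BMP7 libraries, numbered by replicate, with the group mean and SD (n = 3). Duox2 sits at 1.81 to 2.40 CPM in BMP7 and 6.16 to 8.50 CPM in Ctrl, Duox1 overlaps between groups, and BMP7 replicate 1 stands near Ctrl for Ccrl2 and not for Duox2, Tmprss4 or Drc1.

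Per length, Duox2 was above Duox1 in every Ctrl library and in 1 of 3 BMP7 libraries. Duox2 was at 2.58, 3.43 and 3.17 TPM (transcript counts per length, scaled to one fixed sum) in Ctrl and 0.672, 0.852 and 0.868 TPM in BMP7. Duox1 was at 1.82, 0.969 and 1.24 TPM in Ctrl and 1.16, 0.933 and 0.753 TPM in BMP7. The ratio of Duox2 to Duox1 was thus 1.42, 3.54 and 2.55 in Ctrl and 0.578, 0.913 and 1.15 in BMP7, where Duox1 was the more abundant in replicates 1 and 3. Summed over the 2 genes, the level was 4.40, 4.40 and 4.41 TPM in Ctrl and 1.84, 1.79 and 1.62 TPM in BMP7. The ratio of Duoxa1 to this sum was 0.945, 0.737 and 0.747 in Ctrl and 2.23, 2.14 and 2.51 in BMP7. The TPM of Duoxa1 uses all its exon bases, but fragments on the 17.1% it shares with Duoxa2 were left out. Its level per length may therefore be too low in both groups, and with it this ratio. In both ratios the groups did not overlap, and since Duox2 was chosen by its fall these are descriptions with no test.

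The 4 genes of the cluster span 68726 bases, as the map of the Duox cluster shows. Duox2 and Duoxa2 point away from each other with 450 bases between them, and in GRCm38.p6 their RefSeq starts are 673 bases apart. The starts of Duoxa1 and Duox1, which also point away from each other, are 1942 bases apart. Duox1 and Duox2 transcripts in the reference aligned over at most 2769 bases at 79.8% identity, with 170 bases as the longest identical run. Fragments that lay wholly inside such a run would map to both genes and were left out by the authors.

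**Figure D2:**
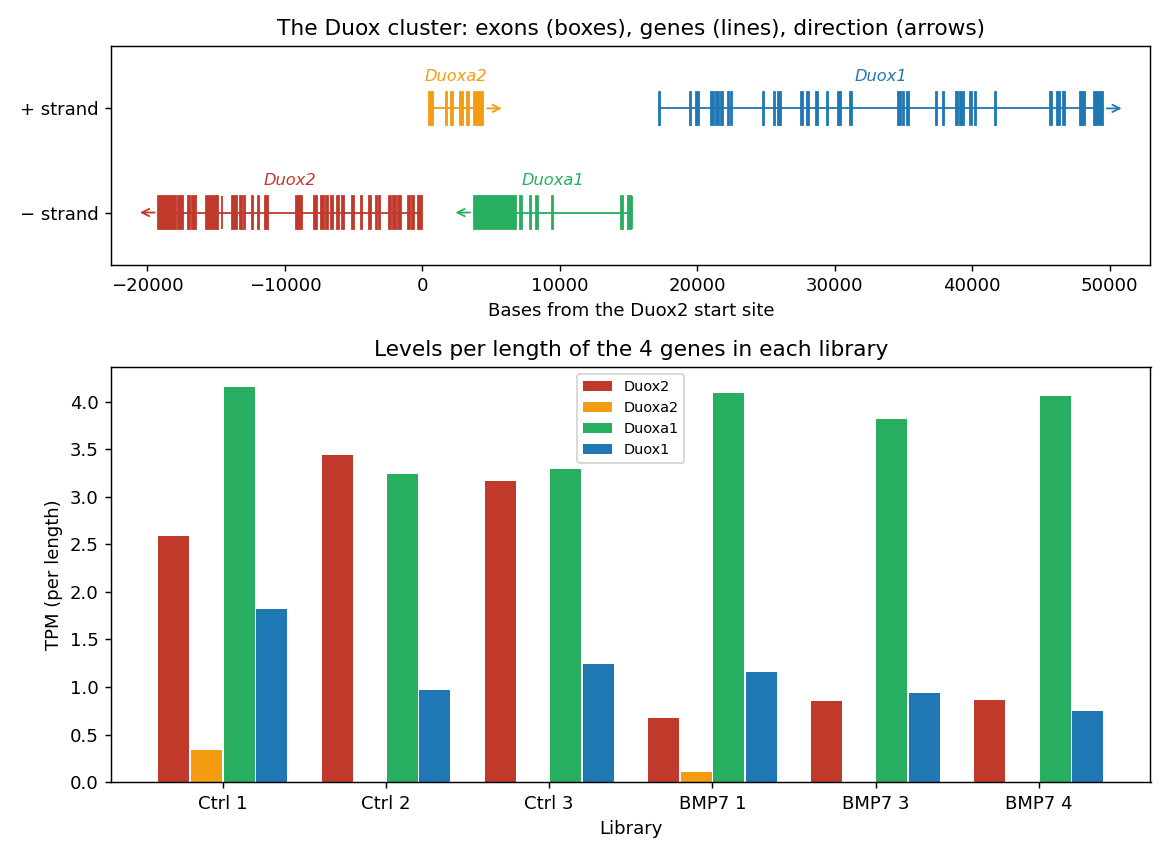
Upper panel, exons and direction of the 4 Duox genes by distance in bases from the Duox2 start. Lower panel, TPM of each gene in every library: Duox2 leads Duox1 in the 3 Ctrl libraries, Duoxa1 is at 3.24 to 4.16 TPM throughout, and Duoxa2 is close to 0.

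The genes around the cluster were expressed at much higher levels and were not called. Within 200 kb, 4 other genes were tested: Spg11, a gene for a lysosomal protein, at 56.3 CPM in Ctrl and 52.3 CPM in BMP7, B2m, the light chain of MHC class I, at 243 and 276 CPM, Sord, sorbitol dehydrogenase, at 78.3 and 74.2 CPM, and Shf, an adaptor, at 71.7 and 61.3 CPM. The end of Shf lies 920 bases from the end of Duox1, and Shf had the largest difference of the 4, a log2 fold change of -0.23, which passed the adjusted p (0.0355 in edgeR's quasi-likelihood test) and not the fold of 1.2.

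Of the other NADPH oxidase genes, 14 were listed, 10 were tested, and 2 were called lower and none higher. The median log2 fold change of the 10 was -0.76, beside -0.01 for all genes tested. For the same 10 genes it was -1.09 without BMP7 replicate 1 and -0.14 with that library alone against Ctrl, where none was called. Noxo1, the organizer of the Nox1 complex, had 91, 90 and 87 counts in Ctrl and 40, 49 and 58 counts in BMP7 and fell from 4.35 to 2.72 CPM (log2 fold change -0.69, adjusted p = 0.0305 in edgeR's quasi-likelihood test). Cybb, the catalytic subunit of the phagocyte oxidase, had 95, 90 and 89 counts in Ctrl and 52, 25 and 17 in BMP7 and fell from 4.45 to 1.89 CPM (log2 fold change -1.32, adjusted p = 0.0174). BMP7 replicate 1 was near Ctrl for Cybb and not for Noxo1. Other genes of the leukocyte oxidase were split like Cybb: Rac2 was at 2.79, 3.10 and 3.13 CPM in Ctrl and 2.86, 0.667 and 0.771 CPM in BMP7, and Ncf1 at 1.73, 1.72 and 2.20 CPM in Ctrl and 2.16, 0.978 and 0.661 CPM in BMP7. Macrophage and neutrophil markers, given with Ccrl2, had the same split, and their part in the median of the list was not tested. Cybb at -0.29 was not called with BMP7 replicate 1 alone against Ctrl (adjusted p = 0.538), and was at -2.10 without that library. Noxo1 was not called without Ctrl replicate 1, 2 or 3 or BMP7 replicate 3, and Cybb was not called by DESeq2 or without Ctrl replicate 1 or 2 or BMP7 replicate 3 or 4. The count of genes called lower in this list ranged from 0 to 4 when 1 library was left out.

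Nox4, which makes hydrogen peroxide without a maturation factor of the Duoxa type, was the catalytic subunit with the highest level per length in both groups. It had 4.29 TPM in Ctrl and 3.61 TPM in BMP7, with a log2 fold change of -0.12 that did not pass the test. The small GTPase Rac1 was at 354 and 352 TPM. Among heme peroxidases, which use hydrogen peroxide, only Pxdn, the peroxidase that crosslinks collagen IV, was tested. It rose from 206 to 298 CPM (log2 fold change 0.53, adjusted p = 2.79e-05 in edgeR's quasi-likelihood test). Lpo, the peroxidase of milk, had at most 2 counts in any library, as had Mpo, and Epx had none. Of 13 genes for iodide and thyroid hormone handling, 3 were tested and none was called: the iodide transporter Slc5a5 had 2.03 CPM in Ctrl and 2.37 CPM in BMP7. The thyroid transcription factor genes Pax8, Nkx2-1 and Foxe1 had no counts.

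Tmprss4 had the second most negative fold change of all genes at 1 CPM or more, and the widest spread in Ctrl of the members tested. Its counts were 94, 138 and 45 in Ctrl and 9, 25 and 20 in BMP7, or 4.53, 6.78 and 2.20 CPM and 0.627, 1.11 and 1.10 CPM. All BMP7 libraries lay below all Ctrl libraries, although Ctrl replicate 3 was closer to BMP7 than to Ctrl replicate 2. The mean was 4.50 ± 2.29 CPM (SD, n = 3) in Ctrl and 0.947 ± 0.277 CPM (SD, n = 3) in BMP7, with a log2 fold change of -2.20 and a standard error of 0.37. Summed counts were 4.58-fold lower, with a 95% Poisson interval from 3.41 to 6.25. The log2 fold change was between -2.53 and -1.79 when 1 library was left out. In mm39 Tmprss4 lies on chr9:45084024-45115390, minus strand, in 13 exon blocks, and shares 412 exon bases (15.9%) with Gm17099, which had no counts.

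A list of membrane-anchored serine proteases and related tryptases held 24 other genes. Of these, 5 were tested, 1 was called lower and none higher, with a median log2 fold change of -0.05. The called gene, Prss22, encodes an epithelial tryptase and had 94, 112 and 103 counts in Ctrl and 40, 59 and 48 in BMP7. It fell from 5.02 to 2.68 CPM (log2 fold change -0.91, adjusted p = 0.00289 in edgeR's quasi-likelihood test). St14, matriptase, was the most abundant of the list at 192 CPM in Ctrl and 164 CPM in BMP7, and its log2 fold change of -0.23 passed the adjusted p (0.0194) and not the fold of 1.2. Prss8, an activator of epithelial sodium channels, had 21.8 and 21.0 CPM and Tmprss13, which lies 115008 bases from Tmprss4, 3.31 and 3.25 CPM, and neither was called.

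Of 13 inhibitors and substrates of these proteases, 8 were tested, and 3 were called lower and none higher, with a median of -0.13. Without Ctrl replicate 1, 10 passed the filter, and 2 were called lower and 2 higher. The latter were Serpinb5 and the sodium channel subunit gene Scnn1g, which was not tested with all libraries. F2rl1, the receptor PAR2 that is activated by cleavage, had 107, 100 and 141 counts in Ctrl and 33, 59 and 40 in BMP7. It fell from 5.65 to 2.38 CPM (log2 fold change -1.24, adjusted p = 0.00038 in edgeR's quasi-likelihood test), and every BMP7 library lay below every Ctrl library. Spint1, an inhibitor of matriptase, fell from 82.1 to 68.1 CPM (-0.27, adjusted p = 0.00593) and lost its call without Ctrl replicate 1 and without BMP7 replicate 1. Epcam, an adhesion protein that matriptase cleaves, fell from 639.6 to 479 CPM (-0.42, adjusted p = 0.00012). The inhibitors Spint2 and Serpinb5, at 208 and 349 CPM in Ctrl, were not called, although Serpinb5 at 0.23 passed the adjusted p (0.0165) and missed the fold.

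Drc1 had the most negative fold change of all genes at 1 CPM or more, from low counts. It had 67, 41 and 32 counts in Ctrl and 6, 7 and 9 counts in BMP7, or 3.23, 2.02 and 1.56 CPM and 0.418, 0.311 and 0.496 CPM. The BMP7 libraries were all below the Ctrl libraries and close to each other. The mean was 2.27 ± 0.859 CPM (SD, n = 3) in Ctrl and 0.408 ± 0.0927 CPM (SD, n = 3) in BMP7, with a log2 fold change of -2.48 and a standard error of 0.39. Summed counts were 5.69-fold lower, with a 95% Poisson interval from 3.61 to 9.36, the widest on this scale of the 4 genes with large falls. Drc1 lies in mm39 on chr5:30486386-30524039, plus strand, in 20 exon blocks without shared bases.

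Of 12 other genes listed for the nexin-dynein regulatory complex, 4 were tested and none was called, with a median log2 fold change of 0.01. Gas8 was at 60.8 CPM in Ctrl and 57.3 CPM in BMP7, Drc3 at 3.04 and 2.81 CPM, and Iqcg at 2.60 and 2.75 CPM, while Ccdc65, the partner of Drc1 in the complex, had 6 to 16 counts per library and was not tested.

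Of 27 other motile cilium genes, 12 were tested, and 2 were called lower and none higher, with a median of -0.17. Without Ctrl replicate 3, 14 passed the filter and 4 were called lower, with Rsph1 and Dnaaf1 added. Without BMP7 replicate 4, 14 passed it and 4 were called lower, with Rsph1 and Rfx3 added. Rsph1 and Dnaaf1 did not pass the filter with all libraries, and both had 0 counts in Ctrl replicate 3. Foxj1, the transcription factor gene of the motile cilium programme, had 842, 767 and 917 counts in Ctrl and 251, 427 and 306 in BMP7. It fell from 41.0 to 17.8 CPM (log2 fold change -1.20, adjusted p = 7.54e-08 in edgeR's quasi-likelihood test), with no overlap between groups. Myb, which acts early in multiciliated cells and in other dividing cells, fell from 11.8 to 6.88 CPM (-0.78, adjusted p = 0.00122). Rfx2 and Rfx3, which encode partners of Foxj1, were at 32.9 and 31.7 CPM in Ctrl and were not called with all libraries. Genes of the axoneme ranged from absent to well above Drc1. Dnal1, a dynein light chain gene, was at 32.4 CPM in Ctrl and 28.9 CPM in BMP7, Ccdc39 at 4.70 and 3.98 CPM and Dnai2 at 1.87 and 2.80 CPM, and none of these was called. Dnah5 and the multiciliation regulators Mcidas and Gmnc had no counts, and Hydin, Rsph4a and Spag6l had at most 5 in any library. Rsph1, of the radial spoke head, had 21, 37 and 0 counts in Ctrl and none in BMP7, so 1 Ctrl library was also at 0. Dnaaf1, an assembly factor of dynein arms, had 18, 15 and 0 counts in Ctrl and 4, 4 and 1 in BMP7. Drc1, in contrast, had 32 counts in that Ctrl library.

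**Figure D3:**
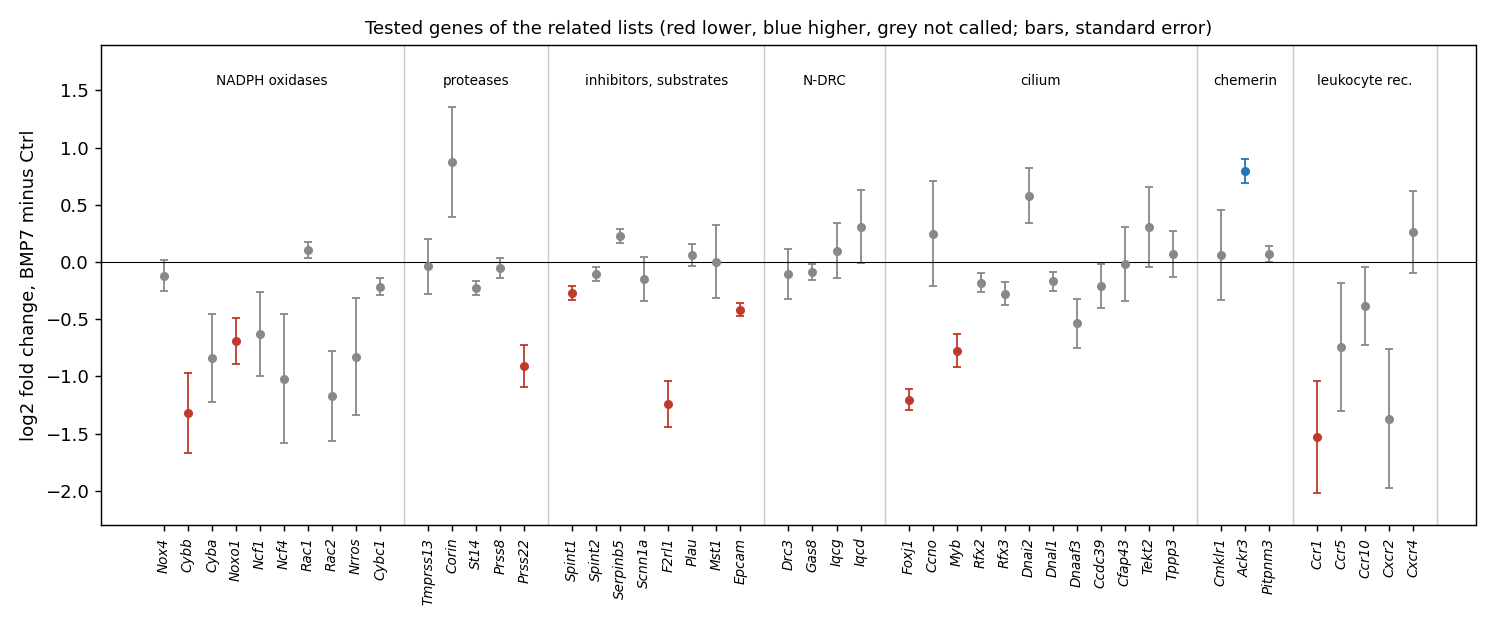
Log2 fold change of BMP7 against Ctrl with its standard error for the tested genes of 7 lists around the Duox genes, Tmprss4, Drc1 and Ccrl2. Called genes are coloured: Cybb, Noxo1, Prss22, Spint1, F2rl1, Epcam, Foxj1, Myb and Ccr1 are lower, and Ackr3 is higher.

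Ccrl2 was the chosen gene with the fewest counts and the least even fall. It had 33, 37 and 41 counts in Ctrl and 19, 8 and 3 counts in BMP7, or 1.59, 1.82 and 2.01 CPM and 1.32, 0.356 and 0.165 CPM. The groups did not overlap, but BMP7 replicate 1 was next to the lowest Ctrl library and far above the other BMP7 libraries. The 3 counts in BMP7 replicate 4 are at the floor, which was set at 3 counts, so fold changes that use this library rest partly on a floor value. The mean was 1.80 ± 0.208 CPM (SD, n = 3) in Ctrl and 0.615 ± 0.622 CPM (SD, n = 3) in BMP7, with a log2 fold change of -1.67 and a standard error of 0.48. Summed counts were 3.31-fold lower, with a 95% Poisson interval from 2.19 to 5.13. The log2 fold change was -2.72 without BMP7 replicate 1, -1.36 without BMP7 replicate 3 and -1.22 without BMP7 replicate 4. With BMP7 replicate 1 alone against Ctrl it was -0.44. Ccrl2 lies in mm39 on chr9:110883554-110886587, minus strand, in 3 exon blocks.

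Summed markers of leukocytes were split between libraries in the same way. The 18 macrophage markers summed to 69.9, 68.7 and 65.0 CPM in Ctrl and 67.5, 33.6 and 32.4 CPM in BMP7, with none of them at 0 in every library. The 10 neutrophil markers summed to 34.3, 32.7 and 33.5 CPM in Ctrl and 32.7, 7.69 and 8.32 CPM in BMP7. In both sums BMP7 replicate 1 was within or next to the Ctrl range, and BMP7 replicates 3 and 4 were far below it. Of 13 macrophage markers tested 4 were called lower and none higher, and of 6 neutrophil markers tested 3 were called lower and none higher. Without BMP7 replicate 1 the filter kept 16 and 6 markers, and 11 and 6 were called lower, all of them also tested with all libraries. For the 13 and 6 markers, the median log2 fold change with BMP7 replicate 1 alone against Ctrl was -0.01 and -0.11. Calls numbered 1 and 0 without Ctrl replicate 1, and 1 and 1 without Ctrl replicate 3. They were 0 and 0 without Ctrl replicate 2, BMP7 replicate 3 or BMP7 replicate 4. In these fits the filter kept 14 to 16 macrophage and 6 to 7 neutrophil markers. DESeq2 called 1 of each list lower. Among the defining genes, Ptprc, the pan-leukocyte gene CD45, had 81, 73 and 78 counts in Ctrl and 46, 24 and 18 in BMP7, and S100a8 had 222, 203 and 188 in Ctrl and 130, 54 and 41 in BMP7. Not every macrophage marker was split in this way. Cd68, which many cell types express, was at 11.6, 11.4 and 10.9 CPM in Ctrl and 15.6, 13.0 and 12.4 CPM in BMP7, and C1qa, C1qb, C1qc and Mrc1, at 3 to 18 counts per library, were no lower in BMP7 replicates 3 and 4 than in BMP7 replicate 1. The source of the leukocyte marker transcripts in this epithelial line was not tested, nor was the part of that source in the level of Ccrl2 and Cybb. In bulk RNA, the presence of such cells, their number and the RNA per cell cannot be told apart.

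**Figure D4:**
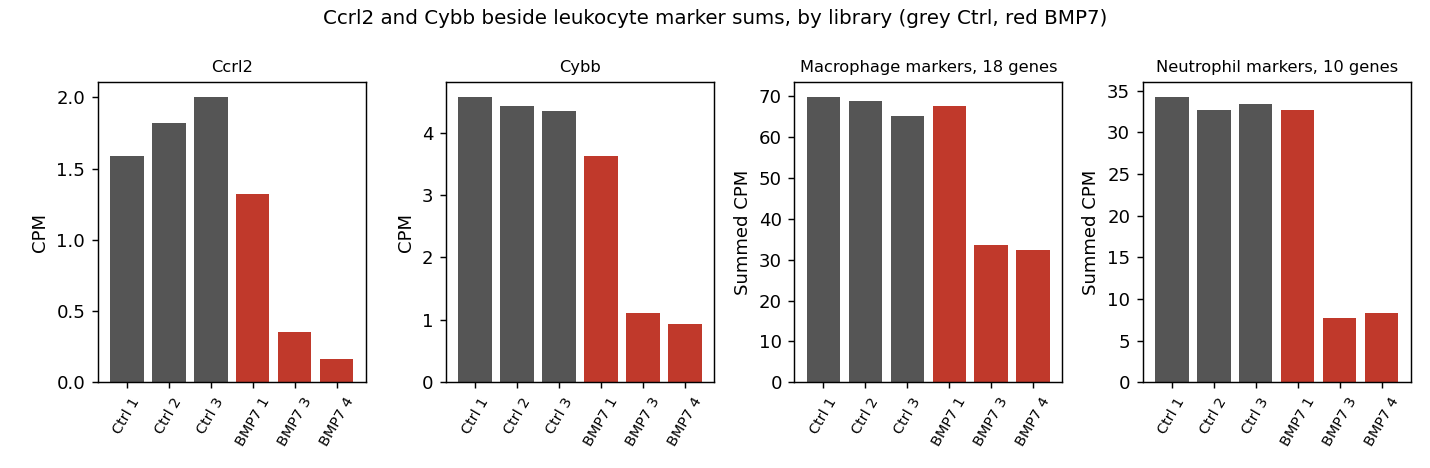
CPM of Ccrl2 and Cybb and summed CPM of 18 macrophage and 10 neutrophil markers in each library (grey Ctrl, red BMP7). In all 4 panels BMP7 replicate 1 is nearer to Ctrl than BMP7 replicates 3 and 4 are.

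The other 3 chosen genes did not share this split. BMP7 replicate 1 had the lowest BMP7 level of Duox2 at 1.81 CPM and of Tmprss4 at 0.627 CPM. For Drc1 it lay between the other BMP7 libraries at 0.418 CPM. With BMP7 replicate 1 alone against Ctrl, the log2 fold changes of Duox2, Tmprss4 and Drc1 were -2.06, -2.83 and -2.42. These values rest on 1 BMP7 library and on the contrast by which the genes were chosen. A link between these genes and the marker split was not tested.

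Of 19 chemokine receptors of leukocytes, 5 were tested, 1 was called lower and none higher, with a median log2 fold change of -0.75. Ccr1, a receptor of inflammatory chemokines on myeloid cells, had 37, 26 and 21 counts in Ctrl and 15, 6 and 4 in BMP7. Its log2 fold change of -1.53 had an adjusted p of 0.0482 in edgeR's quasi-likelihood test. It was -2.44 without BMP7 replicate 1 and -0.38, not called, with that library alone, and the call was lost with DESeq2, with RLE size factors and without Ctrl replicate 1, 2 or 3 or BMP7 replicate 3 or 4. Cxcr2, a neutrophil receptor, had 18, 18 and 22 counts in Ctrl and 14, 1 and 4 in BMP7 and was not called. Its log2 fold change was -1.37 with all libraries, -2.87 and called without BMP7 replicate 1, and 0.05 with that library alone. For the 5 genes the median was -1.69 without BMP7 replicate 1, with 2 called lower, and 0.05 with it alone, with none called.

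Of 10 genes for chemerin, its receptors and the atypical chemokine receptors, 3 were tested, 1 was called higher and none lower, with a median of 0.07. Ackr3, an atypical receptor that takes up CXCL12, had 350, 278 and 260 counts in Ctrl and 378, 540 and 451 in BMP7. It rose from 14.4 to 25.1 CPM (log2 fold change 0.79, adjusted p = 6.84e-05 in edgeR's quasi-likelihood test), with no overlap between the groups. Cmklr1, the signalling receptor of chemerin, had 1.23 and 1.28 CPM and was not called, and Rarres2, which encodes chemerin, had 1 to 8 counts per library.

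The neighbours of Tmprss4, Drc1 and Ccrl2 were mostly not called. Counting the Duox cluster, 18 other genes within 200 kb of a member were tested, and 1 was called lower and none higher. Mpzl2, Mpzl3, Tmprss13 and Fxyd2 around Tmprss4 had log2 fold changes from -0.23 to 0.17. Hadha, Hadhb, ENSMUSG00000120241, Selenoi and Gm16288 around Drc1 had log2 fold changes from -0.43 to 0.16, where Selenoi at -0.21 passed the adjusted p (0.0396 in edgeR's quasi-likelihood test) and not the fold. Around Ccrl2, Als2cl, 153956 bases away, fell from 13.8 to 9.04 CPM (-0.61, adjusted p = 0.00185 in edgeR's quasi-likelihood test), while Tmie and Lrrfip2 were not called. Ltf, the lactoferrin gene 11719 bases away and a neutrophil marker, had 20, 47 and 45 counts in Ctrl and 29, 8 and 11 in BMP7 and was not called (-0.98, adjusted p = 0.223). Ltf was at -1.94 without BMP7 replicate 1 and at 0.15 with that library alone.

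In the order of falls, Drc1, Tmprss4 and Duox2 were followed by Etv5, an ETS factor gene, at a log2 fold change of -1.71 and then by Ccrl2 at -1.67. The chosen gene with the smallest fall, Ccrl2, differed little from Vwa2, an extracellular matrix protein gene at -1.66. Neither Etv5 nor Vwa2 is among the chosen genes. Next came Cited4, a transcriptional co-regulator gene, at -1.60, Cmpk2, a mitochondrial nucleotide kinase gene, at -1.57, and Capn6, a calpain-family gene, at -1.56. The standard errors of Ccrl2 (0.48) and Vwa2 (0.21) exceed the distance between them. The members lie at the low end of expression, as the plot of fold change against level shows, whereas Cited4 was at 216 CPM in Ctrl.

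**Figure D5:**
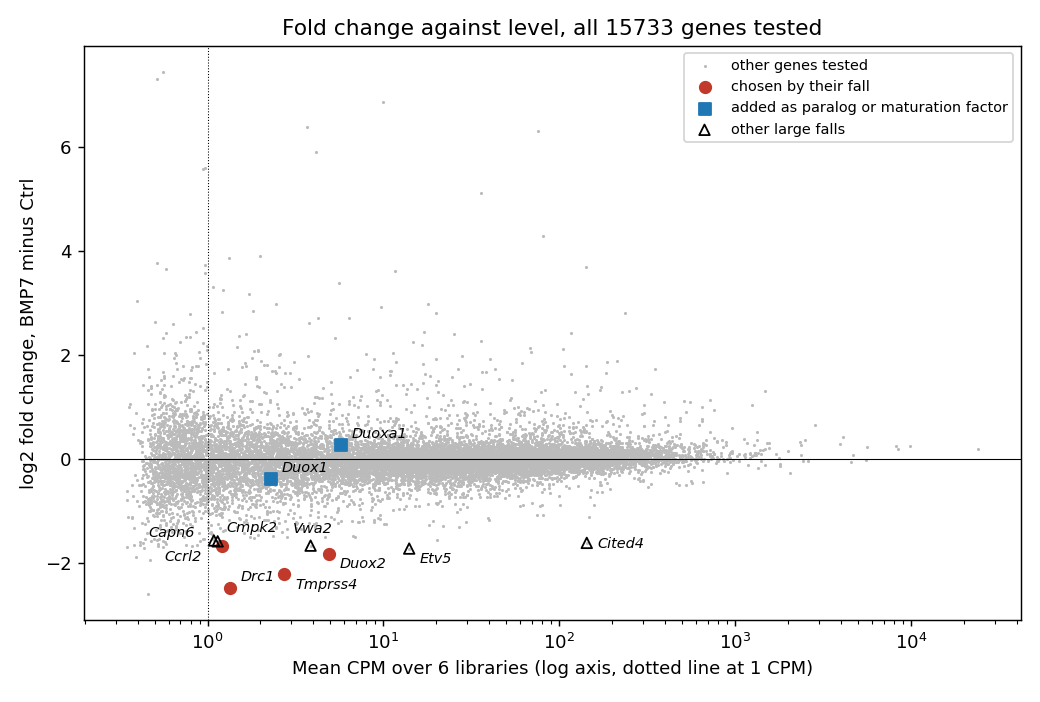
Log2 fold change of BMP7 against Ctrl plotted against the mean CPM over 6 libraries (log axis) for the 15733 genes tested. The chosen genes lie at the lower edge at means of 1.21 to 4.88 CPM, Duox1 and Duoxa1 lie within the bulk of genes, and triangles mark other large falls.

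Across the 6 libraries, log2 CPM of Duox2, Tmprss4 and Drc1 moved together, with Pearson's r of 0.894, 0.893 and 0.897 for the 3 pairs. Ccrl2 was less like them (r = 0.707 with Duox2 and 0.547 with Tmprss4), Duox1 had r = 0.341 with Duox2, and Duoxa1 had r = -0.909. These are descriptions over 6 libraries in 2 groups, and the genes were chosen for a difference between the groups, which enters r.

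The genes most like Duox2 over the 6 libraries, of 14101 compared, were Tlr3, a sensor of double-stranded RNA (r = 0.9982), Zfp36l2, an mRNA decay factor gene (r = 0.9969), and Ampd2, an AMP deaminase gene (r = 0.9964). Those most like Tmprss4 were Tnfaip8, Cdc42se2 and Guf1, and those most like Drc1 were Bcat2, Trim37 and Slc36a1. Ccrl2 was most like Mrpl47, the chemokine gene Ccl3 and Pecr. For Duox1 they were Trp53i13, 6430571L13Rik and Prdx4, and for Duoxa1 Gm20633, Emc8 and Amacr. With 6 points many genes reach such values: 269 genes had r over 0.95 with Duox2 and 273 with Drc1.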

How the data were processed

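RNA of HC11 cells in medium with or without BMP7 was measured by poly(A) RNA-seq, with 3 libraries per group, grouped by the labels. The deposited BMP7 columns are numbered 1, 3 and 4 and the sample titles 1 to 3, so these columns were matched to their group only. The authors aligned read pairs with subjunc, counted fragments per gene with featureCounts and deposited raw counts with each gene's exon length. The header names featureCounts 2.0.1 and an mm39 annotation, and the labels name Subread 2.0.3, mm10 and mm39. Fragments were counted without strand, and those on several genes or places were left out. For HC11 the methods describe 16 h of starvation and 50 ng per mL BMP7 for either 30 min or 6 h, and do not say which applies to these libraries.

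Counts were analysed in R 4.3.3 with edgeR 4.0.16: filter by expression (15733 genes), TMM, a quasi-likelihood fit comparing BMP7 with Ctrl, and Benjamini-Hochberg adjustment over all genes tested. Calls needed an adjusted p under 0.05 with a fold over 1.2. The scripts were tested on simulated data. CPM are TMM-scaled, and TPM were computed from counts and exon lengths. Counts at or under 3 were read as the floor. Likeness is Pearson's r of log2 CPM with a prior count of 2. Transcripts of the reference were compared with BLAST 2.17.0. Totals of 14607938 to 23748970 counts limit precision for genes with few counts. Intervals cover counting error only, and not the choice of genes by their fall.

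The members and lists were chosen with earlier results of these data known. Named genes are the 7 members, the 5 other largest falls at a mean of 1 CPM or more, called or most abundant genes of the lists, tested genes within 200 kb of a member and the 3 genes most like each. A few genes that this rule or the lists include are not reported here. Other genes named with counts (among them Rsph1, Dnaaf1, Cxcr2, the peroxidases and thyroid factors) were chosen after their values were seen. Alternatives were DESeq2 1.42.0, RLE and upper-quartile scaling, no filter, at least 10 counts in every library, a replicate block, adjusted p alone and leaving out each library. BMP7 replicate 1 alone against Ctrl, and the calls and medians of each list without each library, were added after seeing the data.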

Additional observations from a re-analysis of the deposited data

How the results depend on the processing

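Duox2, Tmprss4, Drc1 and Ccrl2 stayed below Ctrl in every alternative that kept them, which their choice by this contrast largely fixes. Duox1 and Duoxa1 were called in none of 13 alternatives. The filter of 10 counts in every library removed Tmprss4, Drc1 and Ccrl2, and Duoxa2 had a value only with no filter (-1.49, adjusted p = 0.677 in edgeR's quasi-likelihood test). Genes called lower numbered 846, and 563 to 902 when 1 library was left out, with the lowest count without Ctrl replicate 2. Genes called higher numbered 942, and 723 to 1081 likewise. DESeq2 gave 739 lower and 925 higher, and upper-quartile scaling 983 and 870. With BMP7 replicate 1 alone against Ctrl, where the lone library is assumed to vary like Ctrl, Duox2 was at -2.06. Within 100 kb, 9 neighbours were tested and 0 were called lower, since Als2cl lies farther away. The cause of the other differences was not tested. Low counts limit Drc1, Ccrl2, Duox1 and Duoxa2.

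Ctrl and BMP7 share only the replicate numbers 1 and 3. Deviations from the group mean in same-numbered libraries had r = -0.01 for number 1 and 0.12 for number 3. For differently numbered libraries r ranged from -0.08 to 0.10. These values cannot show whether libraries were paired, and the main fit used no pairing. With a replicate block, Ctrl replicate 2 and BMP7 replicate 4 each stood alone in a block. The BMP7 effect in that fit rests on replicates 1 and 3 of each group. It called 959 genes lower and 1152 higher, put Duox2 at -1.76, and did not call Spint1 or Ccr1.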
